A study of Mus musculus with 122 samples.

Results

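The integrin genes of myeloid cells were followed across mouse alveolar macrophages that lack C/EBPβ, or that carry a changed Cebpb gene, and across their precursors and chimeric counterparts. The set was chosen by gene name and held 10 genes: the alpha chains Itgam (CD11b), Itgax (CD11c), Itgal (CD11a), Itgae (CD103), Itgav and Itga4, and the beta chains Itgb1, Itgb2, Itgb5 and Itgb7. These 10 genes were among 22050 Ensembl entries in the count tables. The name Itgam belonged to 2 Ensembl entries, so 11 entries carried the names. ENSMUSG00000030786, with 32760 counts over all libraries, was used, and ENSMUSG00000108596, with 39 counts in all, was not.

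RNA was read from the 3′ end of polyadenylated transcripts in 99 libraries of 31 groups, analysed as 11 experiments. Adult alveolar macrophages came from bronchoalveolar lavage of mice with the constitutive Cebpb tm1Pfj allele on a mixed background. Cebpb -/- (knockout) cells were sorted as CD11b high (4 libraries) and CD11b low (4) and set against Cebpb +/+ cells (4). Unsplit tm1Pfj cells came from females of facility1 (2 -/-, 3 +/- and 2 +/+ libraries), females of facility2 (2 -/- and 3 +/+) and males (2 -/- and 2 +/+). Conditional knockouts were on C57BL/6: LyzM Cre/Cre Cebpb flox/flox cells (2) were set against Cebpb flox/flox cells without Cre (2), and CD11c +/Cre Cebpb flox/flox cells (4) against CD11c +/Cre cells (3). The Cre of that second line is driven by Itgax regulatory sequence in both of its groups, and Lyz2-driven Cre is active in other myeloid cells too. Lip/Lip mice (allele C/EBPtm1.2Acle, mixed background), which make LIP, a C/EBPβ form without the activating part, gave CD11b high (4) and CD11b low (4) cells against Lip +/+ cells (3). Premature alveolar macrophages from whole lung at embryonic day E18 were Cebpb -/- (4) against Cebpb +/+ (3), and Csf2rb -/- (Csf2rbtm1Cgb/J, 3) against Csf2rb +/+ (4) on C57BL/6. Ly6Chi fetal lung monocytes of E18 were Cebpb -/- (4) against Cebpb +/+ (3). Mixed marrow chimeras, irradiated CD45.1/2 recipients given 33% CD45.1 wild-type and 66% CD45.2 CD11c +/Cre Cebpb flox/flox marrow, gave knockout and wild-type donor cells from whole lung at 5 weeks (4 and 3 libraries) and 10 weeks (3 and 4). The wild-type donors carry no Cre and another Ptprc allele, so that Cre, allele and Cebpb loss cannot be told apart there. Further adult libraries were made alongside chromatin samples: Cebpb -/- (3) against +/+ (3), and Lip/Lip (4) against Lip +/+ (4). Open chromatin (ATAC) peak lists came from cultured lavage macrophages of 3 MxCre+ Cebpb flox/flox and 2 MxCre+ samples, all expanded with CSF2 and all given IFNα, and 2 C/EBPβ ChIP peak lists came from wild-type macrophages.

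Integrins are pairs of an alpha and a beta chain that bind cells to matrix and to each other. Itgb2 (CD18) pairs with Itgam, Itgax and Itgal to give the leukocyte integrins that bind complement fragments, fibrinogen and ICAMs; Itgb7 pairs with Itga4 or Itgae and binds MAdCAM-1 and E-cadherin; Itgb1 pairs with Itga4 and many other alpha chains; Itgav pairs with Itgb5 or Itgb1 and binds RGD-containing ligands such as vitronectin. Alveolar macrophages of healthy mice are known for high CD11c and little CD11b on their surface, and CD11b is used to tell them from monocytes and other lung macrophages.

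Depth was 642269 to 17834909 counts per library, with a median of 3805474. A library with 3 counts of a gene thus reads 0.163 to 5.20 CPM (counts scaled to the size of the library), the unit of every level given here, and levels are compared between samples, for 1 gene or for the sum over 1 marker list. Cebpb RNA lay at 9.61 to 157 CPM in the Cebpb knockout libraries and at 287 to 3937 CPM in the wild-type and floxed or Cre control libraries. Csf2rb RNA was at 293 to 360 CPM in Csf2rb -/- cells and at 763 to 1175 CPM in Csf2rb +/+ cells. A gene is called where its adjusted p in edgeR's quasi-likelihood test is under 0.05, and each change is a log2 fold change with its standard error (SE). The labels name libraries and not animals, so that p-values measure the spread between these libraries. Groups whose levels do not overlap are common here: among all tested genes their share ran from 8.14% between the knockout sorts to 63.4% in facility1 females, where 2 libraries stand against 2. In bulk samples, fewer cells of a type and less RNA per cell cannot be told apart. Comparisons of one experiment share their control libraries.

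The promoters of Itgam, Itgb7 and Itgax are shown because the C/EBPβ and ATAC peak lists bear on them and their genes carry the main contrasts. RefSeq (GRCm38.p6) start sites were available for 7 of the 10 genes, and each window runs from 250 bases before to 50 bases after the start. Windows lie at chr7:128062390-128062689 on the plus strand (Itgam), chr15:102231886-102232185 on the minus strand (Itgb7) and chr7:128129300-128129599 on the plus strand (Itgax). The annotated Itgb7 gene runs on to position 102233405, so its window lies inside the gene and not at its outer end. Capitals mark GAGGAA or its reverse complement TTCCTC, the core bound by PU.1, a factor of myeloid cells.
Itgam: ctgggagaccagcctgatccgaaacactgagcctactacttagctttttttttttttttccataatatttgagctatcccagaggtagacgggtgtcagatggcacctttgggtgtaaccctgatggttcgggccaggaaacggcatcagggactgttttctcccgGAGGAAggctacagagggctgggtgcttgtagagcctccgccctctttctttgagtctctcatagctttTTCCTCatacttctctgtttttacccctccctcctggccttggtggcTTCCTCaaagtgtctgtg
Itgb7: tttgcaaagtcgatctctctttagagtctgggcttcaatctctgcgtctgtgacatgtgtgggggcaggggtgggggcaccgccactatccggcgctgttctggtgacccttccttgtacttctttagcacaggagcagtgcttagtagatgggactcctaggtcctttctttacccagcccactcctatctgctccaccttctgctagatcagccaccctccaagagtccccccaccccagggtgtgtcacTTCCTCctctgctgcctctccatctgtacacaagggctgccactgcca
Itgax: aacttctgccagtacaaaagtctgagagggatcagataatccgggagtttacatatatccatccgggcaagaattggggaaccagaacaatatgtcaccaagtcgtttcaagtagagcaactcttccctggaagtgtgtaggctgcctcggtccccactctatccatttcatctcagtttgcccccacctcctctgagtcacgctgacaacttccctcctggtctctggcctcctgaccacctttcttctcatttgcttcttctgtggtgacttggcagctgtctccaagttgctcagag
The Itgam window held 3 such matches, the Itgb7 window 1 and the Itgax window 0; 28.3% of 32851 promoters hold at least 1. The C/EBP pattern TTGCNNAA (or TTNNGCAA) was in none of the 7 windows, against 10.8% of all promoters. A C/EBPβ region overlapped the Itgax window in both ChIP lists and the Itgam window in 1 of 2, and no C/EBPβ region overlapped the Itgb7 window.

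Itgam and Itgb7 were the members most often called as higher. Each was called higher in 16 of 20 comparisons, some of which share libraries. Of all tested genes, 0.634% to 47.6% were called per comparison. The comparisons take in the loss of Csf2rb, the Lip/Lip cells and the CD11b sorts, where the gate read Itgam's own product. Itgam was called lower in 1. Itga4 was higher in 9, Itgax in 6, Itgb1 in 5, Itgav in 3 and Itgae in 1. Itgal was lower in 10 and Itgb2 in 5, and Itgb5 was higher in 6 and lower in 2. Itgae passed the filter on low counts only in the chimeras, and the other 9 genes passed in every experiment. In adult lavage controls Itgam and Itgb7 mostly lay near or below that filter. Genes can pass it through the mutant libraries alone, so that being tested could itself depend on high mutant levels.

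In the sorted tm1Pfj experiment, 4 of 9 tested members were called in CD11b high knockout cells against wild type (24.0% of all tested genes were called) and 3 of 9 in CD11b low knockout cells (15.1% of all). Itgam, whose product is CD11b itself, read 61.7, 129, 227 and 114 CPM in CD11b high knockout cells, 13.8, 19.1, 18.7 and 47.8 CPM in CD11b low knockout cells, and 1.34, 2.74, 4.69 and 1.04 CPM in wild-type cells. The 3 groups did not overlap, and CD11b low knockout cells were themselves above wild type. Of all tested genes, 24.9% were without overlap between CD11b high and wild-type cells. The share was 21.4% between CD11b low and wild-type cells and 8.14% between the sorts. The fold change against wild type was 5.53 (SE 0.53, adjusted p = 2.97e-07) in CD11b high cells and 3.07 (SE 0.61, adjusted p = 0.00148) in CD11b low cells. Between the sorts Itgam RNA was 2.46 higher in CD11b high cells. Since the gate read CD11b protein, this is a description of the sort. The gate also bears on Itgam in CD11b high cells against wild type. That contrast is thus no separate test of Itgam, though its call is counted above.

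Itgb7, the beta chain of α4β7 and αEβ7, read 81.5, 108, 72.8 and 87.7 CPM in CD11b high knockout cells, 6.91, 79.8, 51.5 and 44.0 CPM in CD11b low knockout cells, and 0, 4.11, 0.669 and 3.11 CPM in wild-type cells. CD11b low replicate 2 lay within the range of the CD11b high libraries, and all knockout libraries lay above wild type. Fold changes against wild type were 5.53 (SE 0.67, adjusted p = 6.93e-06) in CD11b high and 4.51 (SE 0.72, adjusted p = 0.000237) in CD11b low cells. The difference between the sorts, 1.02 (SE 0.43), was not called (adjusted p = 0.297). These rises stood beside a change in the whole profile: the summed level of 8 monocyte and tissue macrophage markers, all with counts in the knockout sorts, was 5229 to 6800 CPM for CD11b high knockout cells and 3017 to 8303 CPM for CD11b low ones, against 209 to 244 CPM in wild type. The sum of 11 alveolar macrophage markers was 398 to 939 CPM, 1565 to 2760 CPM and 9113 to 11570 CPM in the same order of groups. The part of these shifts in the integrin results was not tested.

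**Figure D1:**
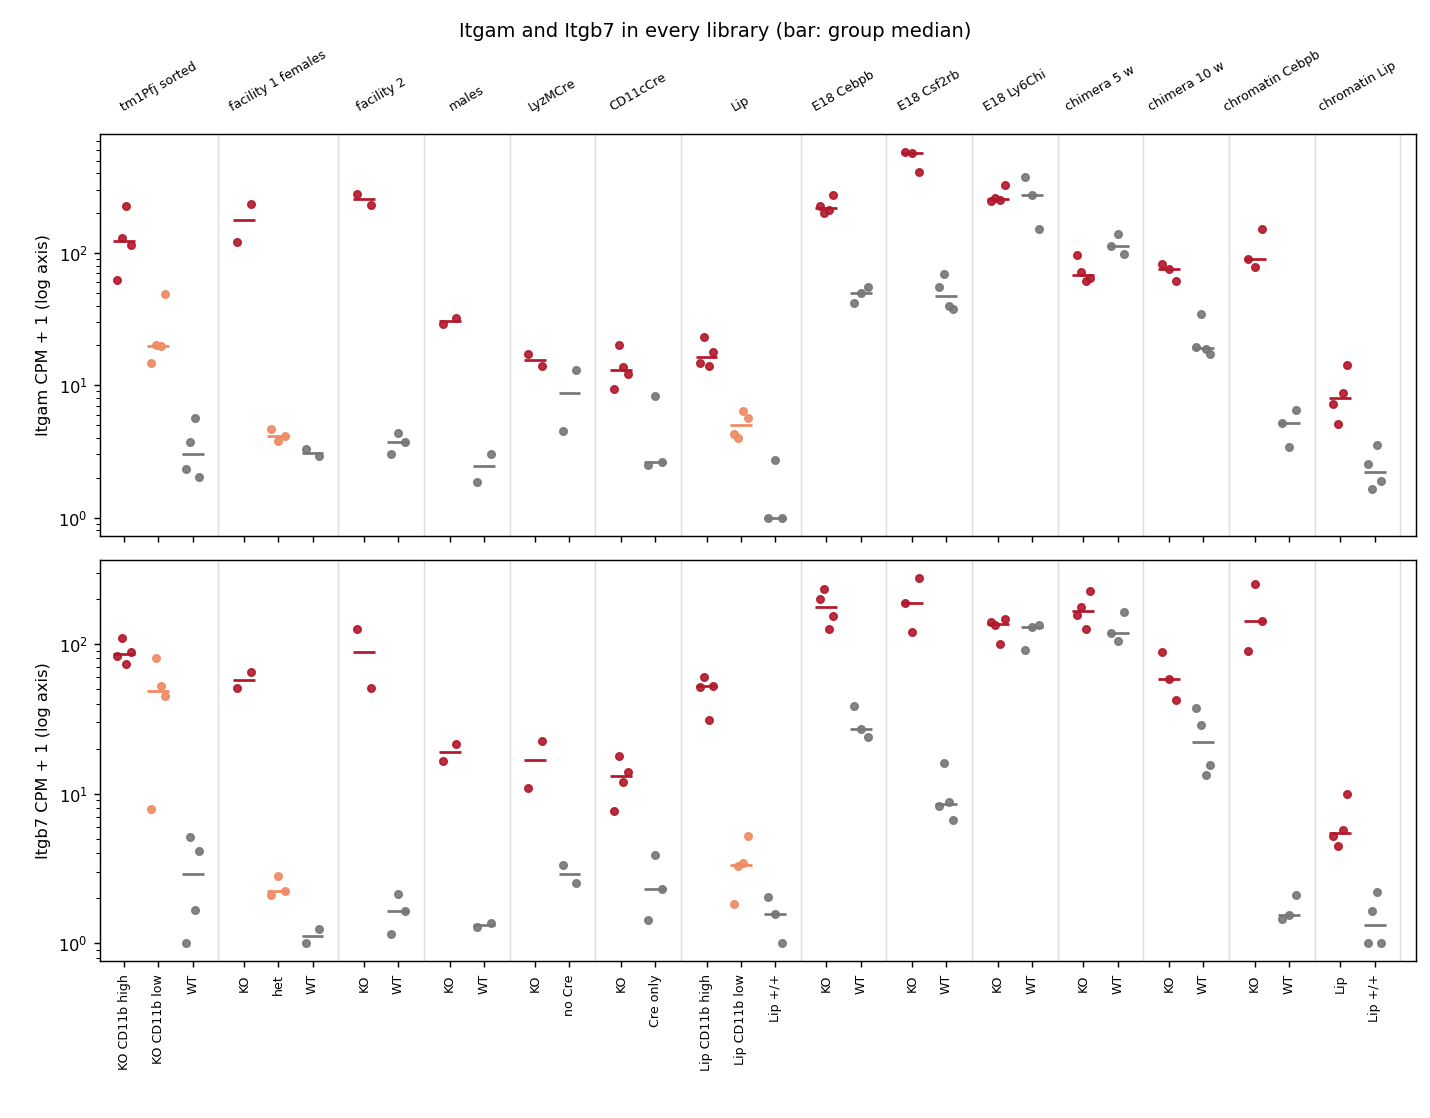
Itgam (top) and Itgb7 (bottom) levels on a log axis in every RNA library, mutant groups beside their controls. The axis is CPM + 1, each point is 1 library and each bar a group median. Adult knockout and Lip/Lip points of lavage cells lie above their controls except 1 CD11b low Lip/Lip library for Itgb7. The E18 Ly6Chi groups overlap for both genes, and in the chimeras at 5 weeks the knockout points lie below wild type for Itgam and overlap it for Itgb7.

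Unsplit adult cells gave the same direction for both genes. In females of facility1, Itgam was at 120 and 235 CPM in knockout cells, 3.67, 2.80 and 3.13 CPM in heterozygous cells, and 2.27 and 1.92 CPM in wild-type cells. Heterozygous libraries lay just above the wild-type ones and far below the knockout ones. The fold change was 6.40 (SE 0.38, adjusted p = 2.25e-09) for knockout against wild type and 5.79 (SE 0.29, adjusted p = 1.47e-10) for knockout against heterozygous. Itgb7 was at 49.6 and 64.1 CPM in knockout cells, 1.12, 1.82 and 1.22 CPM in heterozygous cells, and 0 and 0.239 CPM in wild-type cells. Wild type held 1 Itgb7 count against 564 in knockout, a depth-scaled ratio of 425 (exact 95% interval 76 to 16800, counting error only). In all, 6 of 9 members were called in knockout against wild type (23.2% of all genes), 5 of 9 in knockout against heterozygous (21.2% of all) and 0 of 9 in heterozygous against wild type (0.634% of all). For that last comparison DESeq2 also called 0 members, and 1, Itgb7, had an unadjusted p under 0.05, with all 3 heterozygous libraries above both wild-type ones.

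In females of facility2, 8 of 9 members were called, where 47.6% of all genes were. Itgam was at 280 and 229 CPM in knockout cells and at 2.01, 3.33 and 2.69 CPM in wild-type cells, a change of 6.54 (SE 0.29, adjusted p = 2.52e-11). Itgb7 was at 126 and 50.1 CPM in knockout cells against 0.144, 1.15 and 0.634 CPM in wild-type cells, a change of 6.95 (SE 0.47, adjusted p = 4.29e-09). Males showed 3 of 9 members called (10.9% of all). Male Itgam was at 27.9 and 31.1 CPM in knockout cells against 0.845 and 2.04 CPM in wild-type cells, a change of 4.24 (SE 0.40, adjusted p = 9.62e-07). Male Itgb7 was at 15.5 and 20.4 CPM against 0.282 and 0.370 CPM, with 245 counts against 3 and a ratio of 53.1 (exact 95% interval 18 to 259). Both genes were higher in every knockout library of all 3 sets. Of all tested genes, 63.4% were without overlap in facility1, 61.5% in facility2 and 58.4% in males. In the libraries made alongside chromatin samples, 5 of 9 members were called (27.2% of all); Itgam was at 89.4, 77.0 and 151 CPM in knockout cells against 4.15, 2.39 and 5.50 CPM in wild-type cells, and Itgb7 at 89.2, 249 and 141 CPM against 0.461, 0.552 and 1.1 CPM.

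Conditional deletion was followed in both Cre lines, where Itgb7 was called in each and Itgam in 1. The LyzM Cre controls carried no Cre, so that Cre and Cebpb loss cannot be told apart in that line. With LyzM Cre, Itgam was at 16.1 and 13.0 CPM in knockout cells against 3.49 and 12.1 CPM in floxed controls. The groups did not overlap, as for 46.7% of all tested genes, and the change of 0.91 (SE 0.57) was not called (adjusted p = 0.543). Itgb7 was at 9.91 and 21.6 CPM against 2.33 and 1.51 CPM, a change of 3.12 (SE 0.62, adjusted p = 0.0223), and was the 1 of 9 members called (4.68% of all). That call was lost without either control library. With CD11c Cre, 4 of 9 members were called (16.8% of all). Itgam was at 8.36, 19.1, 12.8 and 11.2 CPM in knockout cells against 1.48, 7.35 and 1.65 CPM in Cre controls, a change of 1.89 (SE 0.47, adjusted p = 0.0147) that was lost without control replicate 1 or 3 or knockout replicate 2 or 4. Itgb7 was at 6.69, 16.9, 11 and 13.0 CPM against 0.422, 2.90 and 1.32 CPM, a change of 2.89 (SE 0.46, adjusted p = 0.000799).

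**Figure D2:**
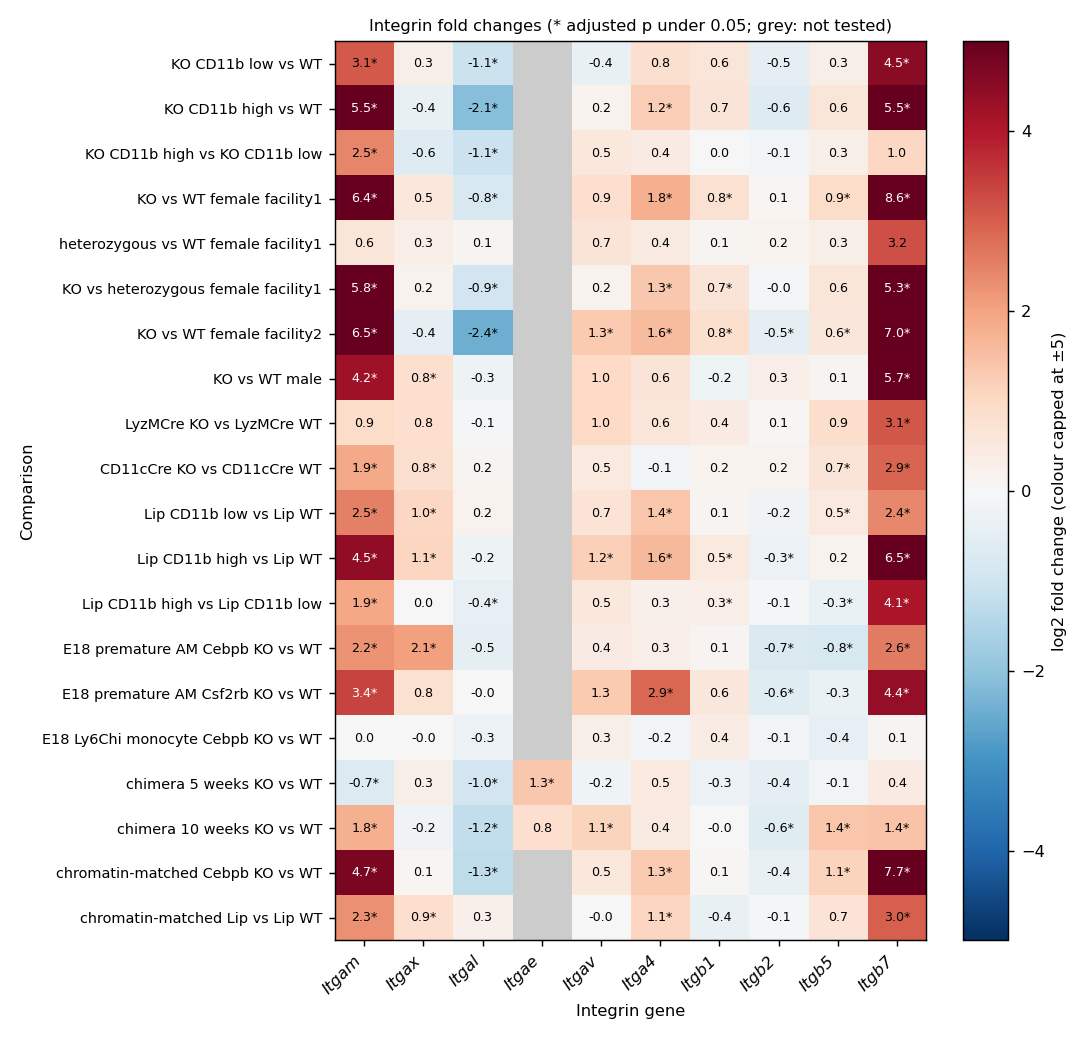
Log2 fold change of each integrin gene (columns) in each comparison (rows), mutant over control or CD11b high over CD11b low, red for higher and blue for lower, with an asterisk for an adjusted p under 0.05 and grey for not tested. The Itgam and Itgb7 columns are red nearly throughout, and the Itgal column is blue in the tm1Pfj sorts and the chimeras.

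In Lip/Lip cells, which still make a C/EBPβ form, Itgb7 set the CD11b sorts further apart than in the knockout. Against Lip +/+ cells, 7 of 9 members were called in CD11b high Lip/Lip cells (39.3% of all) and 5 of 9 in CD11b low ones (25.8% of all); between the Lip/Lip sorts 5 of 9 were called (19.5% of all). Itgb7 was at 50.5, 59.6, 30.1 and 51.5 CPM in CD11b high, 0.822, 2.26, 2.42 and 4.23 CPM in CD11b low, and 1.03, 0.575 and 0 CPM in Lip +/+ cells. CD11b high libraries stood far above both other groups, which overlapped each other. The change between the Lip/Lip sorts was 4.09 (SE 0.31, adjusted p = 1.86e-14), whereas that between the knockout sorts was 1.02, as given above. The difference of these differences, knockout minus Lip, was -3.04 (SE 0.69, adjusted p = 0.0133) and was the 1 of 9 members called there (3.32% of all); the lines were prepared as separate experiments, and experiment and allele cannot be told apart. Beside it, 8 monocyte and tissue macrophage markers summed to 1128 to 2014 CPM for CD11b high Lip/Lip cells and 136 to 304 CPM for CD11b low ones, against 98.2 to 146 CPM in Lip +/+ cells, where Ly6c2 was at 0; their part in the result was not tested.

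Itgam was at 13.7, 22.1, 13.1 and 16.9 CPM in CD11b high, 3.29, 3.01, 5.44 and 4.66 CPM in CD11b low, and 0, 1.73 and 0 CPM in Lip +/+ cells, with no overlap of the 3 groups. Of all tested genes, 41.2% were without overlap between CD11b high and Lip +/+ cells. The share was 31.4% between CD11b low and Lip +/+ cells and 20.3% between the sorts. Lip +/+ cells held 3 Itgam counts in all, against 77 in CD11b high cells, a ratio of 22.8 (exact 95% interval 7.52 to 113), and 28 in CD11b low cells, a ratio of 5.96 (1.84 to 30.6). The gate read CD11b protein here too, so the CD11b high ratio is no separate test of Itgam. The CD11b low Itgam change was lost without Lip +/+ replicate 3 (1.87, adjusted p = 0.0740). For Itgb7 the ratio was 99.5 (27.2 to 827) in CD11b high and 5.75 (1.38 to 51.1) in CD11b low cells, each against 2 counts in Lip +/+. The CD11b low Itgb7 change of 2.40 (SE 0.83, adjusted p = 0.0258) was not called by DESeq2 (adjusted p = 0.0757) and was lost without Lip +/+ replicate 2 or 3 or CD11b low replicate 4 (1.76 to 2.64), and CD11b low replicate 1 lay inside the Lip +/+ range. In the unsplit Lip/Lip libraries made alongside chromatin samples, 4 of 9 members were called (4.94% of all). Itgam was at 6.20, 4.13, 7.79 and 13.2 CPM in Lip/Lip against 1.56, 0.649, 2.54 and 0.874 CPM in Lip +/+ cells, and Itgb7 at 4.19, 3.44, 4.74 and 8.97 CPM against 0, 0.649, 1.18 and 0 CPM. The changes were 2.28 (SE 0.57, adjusted p = 0.0237) and 3.00 (SE 0.73, adjusted p = 0.0210), both lost without Lip +/+ replicate 1, 2 or 4 or Lip/Lip replicate 4, and Itgam also without Lip/Lip replicate 3. No Lip/Lip library fell within the control range for either gene, where 9.71% of all tested genes were without overlap.

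**Figure D3:**
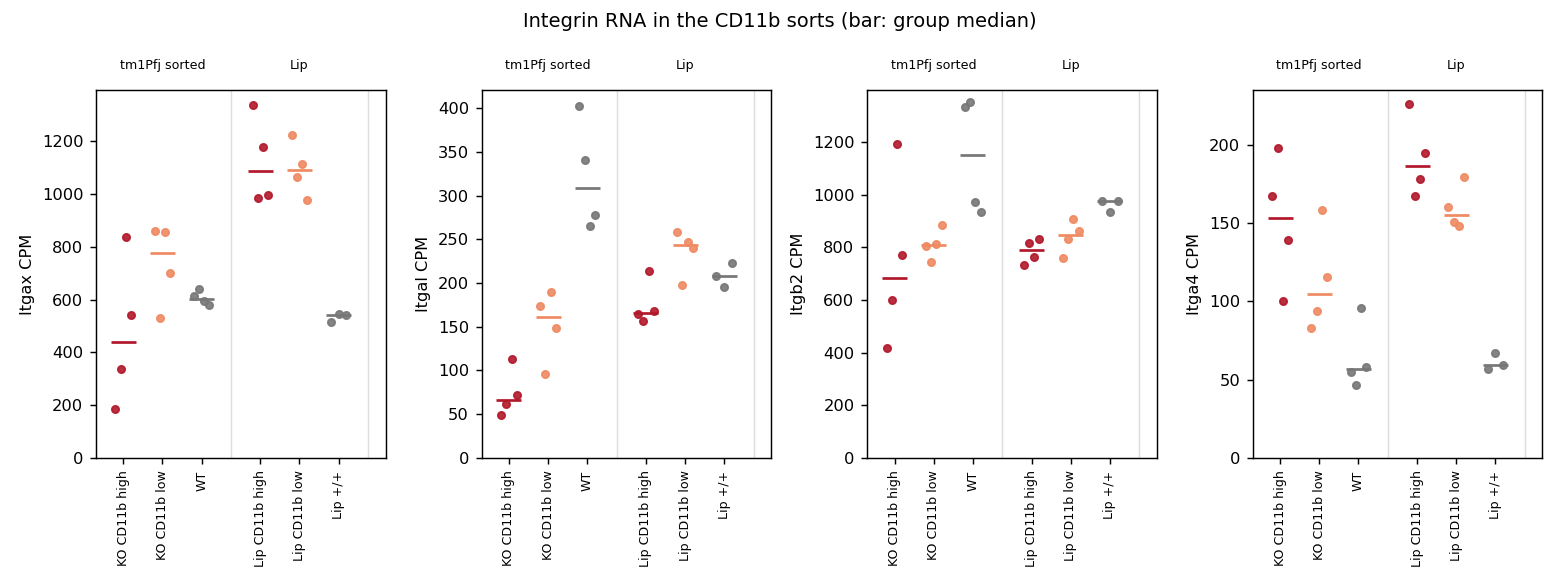
Itgax, Itgal, Itgb2 and Itga4 levels (CPM) in the CD11b high, CD11b low and control libraries of the tm1Pfj and Lip experiments, each point 1 library. Itgal steps down from controls to the knockout sorts, and in Lip/Lip its median is lower in CD11b high than in CD11b low cells. Itgax is higher in both Lip/Lip sorts than in Lip +/+ and overlaps wild type in the knockout sorts.

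Itgax, the CD11c chain, did not follow Itgam in the knockout sorts. It read 185, 336, 839 and 540 CPM in CD11b high knockout cells, 859, 531, 857 and 699 CPM in CD11b low knockout cells, and 612, 639, 593 and 578 CPM in wild-type cells. Knockout libraries lay on both sides of the narrow wild-type range. No sort differed from wild type or from the other (high against wild type -0.35, adjusted p = 0.453; high against low -0.64, adjusted p = 0.423). Without CD11b high replicate 3, at 839 CPM, both became calls, at -0.77 (adjusted p = 0.0393) and -1.06 (adjusted p = 0.0286). In Lip/Lip cells Itgax was at 1336, 985, 1177 and 998 CPM in CD11b high, 1225, 1066, 1114 and 977 CPM in CD11b low, and 513, 547 and 540 CPM in Lip +/+ cells. Both sorts lay above the controls and overlapped each other; the change was 1.07 (SE 0.11, adjusted p = 7.17e-12) for CD11b high and 1.04 (SE 0.11, adjusted p = 3.92e-11) for CD11b low cells.

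In CD11c Cre knockout cells Itgax was at 1418, 1420, 1215 and 1229 CPM, against 776, 704 and 810 CPM in Cre controls (change 0.79, SE 0.11, adjusted p = 0.00039), both groups carrying the Itgax-driven transgene. Male knockout cells were at 911 and 978 CPM against 518 and 532 CPM in wild type (change 0.85, SE 0.26, adjusted p = 0.0433), a call that ended without any 1 of these 4 libraries. Unsplit Lip/Lip cells were at 1032, 981, 999.9 and 720 CPM against 509, 527, 585 and 448 CPM in Lip +/+ cells (change 0.85, SE 0.21, adjusted p = 0.0235, lost with library-size scaling, at 0.71 and adjusted p = 0.0507, without any 1 control other than replicate 3 or without Lip/Lip replicate 1 or 2). In each of these sets no mutant library overlapped its controls. Of all tested genes, 26.5% were without overlap in CD11c Cre cells, 58.4% in males and 9.71% in unsplit Lip/Lip cells. LyzM Cre knockout cells were at 775 and 1328 CPM against 579 and 598 CPM in floxed controls and were not called (0.84, SE 0.33, adjusted p = 0.249). With only knockout replicate 2 (1.19) or only replicate 1 (0.40) they were, the lone library being assumed to vary like the controls. Female knockout cells were at 1095 and 636 CPM against 509 and 700 CPM in wild type in facility1, and at 363 and 617 CPM against 589, 699 and 703 CPM in facility2. These overlapped, and neither was called (0.52, adjusted p = 0.160; -0.43, adjusted p = 0.145); with library-size scaling the facility2 value was called, at -0.65 (adjusted p = 0.0206). Without knockout replicate 2 of its own facility each value was called, at 0.84 (adjusted p = 0.0440) in facility1 and -0.88 (adjusted p = 0.0137) in facility2, the lone knockout library being assumed to vary like the other groups.

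Itgal, the alpha chain of LFA-1, which binds ICAM-1, moved opposite to Itgam in the constitutive knockout. It read 49.5, 61.2, 113 and 71.4 CPM in CD11b high knockout cells, 174, 95.4, 190 and 148 CPM in CD11b low knockout cells, and 403, 341, 266 and 278 CPM in wild-type cells. Every knockout library was below every wild-type one, and the sorts overlapped by CD11b high replicate 3. The change against wild type was -2.14 (SE 0.26, adjusted p = 4.22e-06) in CD11b high and -1.06 (SE 0.25, adjusted p = 0.00608) in CD11b low cells. Between the knockout sorts 2 of 9 members were called (3.80% of all), Itgam and Itgal. The Itgal difference of -1.08 (SE 0.26, adjusted p = 0.0218) ended without CD11b low replicate 1 or 3 or CD11b high replicate 1, 2 or 4, at values of -1.07 to -0.94.

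Facilities differed for Itgal: it was at 110 and 91.4 CPM in knockout cells against 550, 520 and 547 CPM in wild-type cells of facility2, and at 435 and 199 CPM against 513 and 584 CPM in facility1. Knockout libraries were lower in both, with a wider spread in facility1. The changes were -2.43 (SE 0.26, adjusted p = 7.16e-07) in facility2 and -0.79 (SE 0.26, adjusted p = 0.0318) in facility1, and their difference was -1.64 (SE 0.35, adjusted p = 0.0107), the 1 of 9 members called there (7.61% of all). The call of that difference ended without facility1 knockout replicate 1 (-0.99, adjusted p = 0.0561) and with only the libraries compared (-1.65, adjusted p = 0.0588). The facility1 change itself was lost with only the libraries compared (-0.80, adjusted p = 0.160), without either wild-type library (-0.88 and -0.72) or without knockout replicate 2, when it was -0.35 (adjusted p = 0.343). The share of mitochondrial counts was 0.886% to 1.22% in facility2 knockout libraries and 0.039% to 0.058% in facility2 wild type; its part was not tested. The chromatin-matched knockout libraries were at 139, 137 and 164 CPM against 376, 361 and 325 CPM in wild type, a change of -1.27 (SE 0.16, adjusted p = 0.000321). By contrast Itgal was not called in males (-0.27), LyzM Cre cells (-0.07), CD11c Cre cells (0.15) or Lip/Lip CD11b high cells (-0.24, adjusted p = 0.0945). The last of these was called with library-size scaling (-0.34, adjusted p = 0.0177) and without CD11b high replicate 3 (-0.36, adjusted p = 0.0167). Itgal was also lower in CD11b high than in CD11b low Lip/Lip cells, at 164, 157, 214 and 168 CPM against 259, 197, 247 and 240 CPM (-0.42, SE 0.11, adjusted p = 0.00325).

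Itgb2, the shared beta chain of the CD11 integrins, was called in 5 of 20 comparisons, each time as lower. It was at 418, 600.4, 1193 and 769 CPM in CD11b high knockout cells, 805, 744, 812 and 884 CPM in CD11b low knockout cells, and 1334, 1351, 971 and 936 CPM in wild-type cells. CD11b low libraries all lay below wild type and CD11b high replicate 3 lay within it; neither change was called (low -0.50, adjusted p = 0.205; high -0.63, adjusted p = 0.0837), and without CD11b high replicate 3 the high change was called at -0.94 (adjusted p = 0.00353), as it was with library-size scaling (-0.78, adjusted p = 0.0303). It was lower in facility2 knockout females, at 1220 and 1031 CPM against 1576, 1582 and 1609 CPM in wild type (-0.50, SE 0.19, adjusted p = 0.0362), a call lost with only the libraries compared (-0.52, adjusted p = 0.0561) and without any 1 wild-type library or knockout replicate 2 (-0.50 to -0.39). CD11b high Lip/Lip cells were at 735, 815, 762 and 831 CPM against 978, 933 and 977 CPM in Lip +/+ cells (-0.29, SE 0.09, adjusted p = 0.0103). No other comparison of lavage cells called Itgb2, except with library-size scaling, in CD11b low Lip/Lip cells (-0.29, adjusted p = 0.0104) and the chromatin-matched knockout (-0.66, adjusted p = 0.00622), and in that knockout without replicate 3 (-0.38).

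Itga4, the partner of Itgb7 and Itgb1 that binds VCAM-1, was called higher in some constitutive comparisons and in Lip/Lip cells against Lip +/+. It was at 168, 198, 100.2 and 139 CPM in CD11b high knockout cells, 82.9, 93.7, 159 and 116 CPM in CD11b low knockout cells, and 54.9, 46.5, 95.7 and 58.0 CPM in wild-type cells. CD11b high libraries lay above wild type and CD11b low ones overlapped it, with changes of 1.23 (SE 0.27, adjusted p = 0.00186) and 0.80 (SE 0.27, adjusted p = 0.0504); the second was called by DESeq2 (0.81, adjusted p = 0.0402), without the count filter (0.80, adjusted p = 0.0369), with only the libraries compared (0.82, adjusted p = 0.0298) and without wild-type replicate 3 (1.08) or CD11b low replicate 1 (0.94). In Lip/Lip cells it was at 226, 167, 178 and 195 CPM in CD11b high, 160, 151, 148 and 180 CPM in CD11b low, and 56.9, 66.7 and 59.6 CPM in Lip +/+ cells. Both sorts stood above the controls, by 1.64 (SE 0.13, adjusted p = 1.01e-14) and 1.38 (SE 0.13, adjusted p = 4.08e-12), and overlapped each other. Females changed by 1.78 in facility1 (126 and 136 CPM against 46.5 and 29.7 CPM) and by 1.58 in facility2 (166 and 113 CPM against 48.3, 48.2 and 42.0 CPM). The chromatin-matched cells also differed, by 1.32 in Cebpb knockout and 1.07 in Lip/Lip, where the call was lost without Lip +/+ replicate 3 or 4 or Lip/Lip replicate 2 (0.90 to 1.00). Neither conditional line was called (LyzM Cre 0.62, adjusted p = 0.316, and CD11c Cre -0.13, adjusted p = 0.599). Males were not called (0.63, adjusted p = 0.124), except with only the libraries compared (0.64, adjusted p = 0.0112). The E18 Cebpb -/- premature macrophages and Ly6Chi monocytes, given below, were not called either.

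Itgb1, the beta chain of the very late antigen integrins, was higher in female knockout cells. In facility1 it was at 591 and 664 CPM in knockout against 420 and 311 CPM in wild type (0.78, SE 0.18, adjusted p = 0.00462), which was no longer called with only the libraries compared (0.77, adjusted p = 0.0574) or when wild-type replicate 2 (0.56) or knockout replicate 2 (0.68) was left out. In facility2 it was at 788 and 732 CPM against 455, 428 and 433 CPM (0.79, SE 0.16, adjusted p = 0.000716). CD11b high Lip/Lip cells were at 579, 675, 609 and 593 CPM, above CD11b low cells at 441 to 507 CPM and Lip +/+ cells at 404 to 475 CPM. In the knockout sorts CD11b high cells were at 553 to 1100.2 CPM and CD11b low cells at 601 to 1105 CPM, against 433 to 545 CPM in wild type; no library overlapped wild type, but neither change was called (high 0.65, adjusted p = 0.0543; low 0.62, adjusted p = 0.0917). The high change was called by DESeq2 (0.66, adjusted p = 0.0362), without the count filter (adjusted p = 0.0429) and without CD11b high replicate 3 (0.79) or 4 (0.76), and the low change with only the libraries compared (adjusted p = 0.0423). Itgb1 was not called in males (-0.20, adjusted p = 0.586), LyzM Cre cells (0.42, adjusted p = 0.642) or CD11c Cre cells (0.17, adjusted p = 0.434). In the chimeras at 5 weeks it was called as lower with library-size scaling (-0.41, adjusted p = 0.0243) and with only the libraries compared (-0.29, adjusted p = 0.0478).

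Itgb5 and Itgav encode the chains of αvβ5, a receptor for vitronectin and for the bridging protein MFGE8. Itgb5 was higher in CD11c Cre knockout cells, at 199, 215, 187 and 324 CPM against 138, 161 and 139 CPM in Cre controls (0.66, SE 0.18, adjusted p = 0.0230), a call lost without control replicate 1 or 3 (0.62 each). It was also higher in the chromatin-matched knockout, at 219, 227 and 135 CPM against 101, 92 and 76.9 CPM (1.11, SE 0.22, adjusted p = 0.00457). In the Lip experiment it was at 182, 161, 174 and 158 CPM in CD11b high cells, 183, 215, 233 and 211 CPM in CD11b low cells, and 151, 133 and 168 CPM in Lip +/+ cells. The change between the sorts, high over low, was -0.32 (adjusted p = 0.0224), lost without CD11b low replicate 3 or CD11b high replicate 2 or 4 (-0.30 to -0.27). Itgb5 was not called in males (0.15, adjusted p = 0.810) or LyzM Cre cells (0.86, adjusted p = 0.0946). Nor was it in CD11b low (0.30, adjusted p = 0.453) or CD11b high knockout cells (0.61, adjusted p = 0.0779). The CD11b high change was called without wild-type replicate 1 (0.825) or CD11b high replicate 1 (0.735). Itgb5 rose in knockout females by 0.91 in facility1 and by 0.58 in facility2 (adjusted p = 0.0485). The facility1 call was lost without either wild-type library or knockout replicate 1 (0.63 to 0.96), and the facility2 call with library-size scaling (0.38, adjusted p = 0.173), with only the libraries compared (0.55, adjusted p = 0.0854) or without wild-type replicate 1 or 3 or knockout replicate 2 (0.31 to 0.50). Itgav was low in adult cells, at 0 to 24.5 CPM, and was called in facility2 females, at 17.9 and 24.5 CPM in knockout against 9.06, 7.69 and 9.35 CPM in wild type (1.32, SE 0.28, adjusted p = 0.000874), and in CD11b high Lip/Lip cells, at 6.93 to 13.7 CPM against 4.03 to 4.41 CPM in Lip +/+ cells (1.19, SE 0.41, adjusted p = 0.0180), where the call was lost without Lip +/+ replicate 2 or 3 or CD11b high replicate 1 (0.98 to 1.24).

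At E18, Cebpb -/- premature macrophages carried 5 called members of 9 (21.5% of all). Itgam was at 224, 200.4, 209 and 272 CPM in Cebpb -/- cells and 40.7, 48.7 and 53.9 CPM in +/+ cells (2.24, SE 0.21, adjusted p = 4.96e-06). Itgax was at 63.4, 104, 40.1 and 74.8 CPM against 18.1, 20.0 and 12.9 CPM (2.05, SE 0.31, adjusted p = 0.0003). Itgb7 was at 199, 232, 124 and 152 CPM against 37.5, 26.0 and 22.9 CPM (2.61, SE 0.27, adjusted p = 1.06e-05). These 3 genes separated the genotypes in every library, as did 31.5% of all tested genes. Itgb5 was lower, at 127, 132, 113 and 92.6 CPM against 214, 183 and 214 CPM (-0.81, SE 0.19, adjusted p = 0.00751), and so was Itgb2, at 266, 260, 168 and 237 CPM against 265, 478 and 425 CPM (-0.74, SE 0.24, adjusted p = 0.0412). The Itgb2 groups overlapped, and leaving out any 1 library but +/+ replicate 1 or -/- replicate 2 ended the call (-0.81 to -0.54). The 8 dendritic cell markers summed to 646 to 1110 CPM in Cebpb -/- cells, with Xcr1 at 0, against 38.9 to 66.0 CPM in +/+ cells, with Xcr1 and Clec9a at 0. Dendritic cells are known to express Itgax, and the part of the markers in the result was not tested.

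Csf2rb -/- premature macrophages, which lack the beta chain of the CSF2 receptor, had 4 of 9 members called (22.5% of all). Csf2rb -/- libraries held counts for 9387 to 9418 genes, against 11639 to 12557 genes in +/+ libraries, and the part of this in the results was not tested. Itgam was at 575, 566 and 408 CPM in Csf2rb -/- cells against 54.3, 68.2, 38.9 and 37.0 CPM in +/+ cells (3.38, SE 0.27, adjusted p = 3.9e-05). Itga4 was at 396, 342 and 506 CPM against 71.9, 26.1, 65.8 and 64.0 CPM (2.87, SE 0.34, adjusted p = 0.000384), and Itgb7 at 186, 120 and 274 CPM against 7.29, 15.0, 7.85 and 5.62 CPM (4.41, SE 0.43, adjusted p = 0.000125). All 3 were without overlap, as were 37.3% of all tested genes. Itgax was at 26.9, 48.2 and 66.3 CPM against 34.6, 22.5, 30.8 and 24.1 CPM, groups that overlapped and were not called (0.76, adjusted p = 0.203). Itgb2 was lower, at 568, 605 and 595 CPM against 937, 978, 871 and 797 CPM (-0.60, SE 0.16, adjusted p = 0.0227), a call lost without +/+ replicate 1 (-0.58) or 3 (-0.62). Itga4 in the Cebpb -/- premature macrophages, a separate experiment, changed by 0.32 (SE 0.25) and was not called (adjusted p = 0.407); the difference between the mutants was not tested.

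In Ly6Chi fetal monocytes, 0 of 9 members were called (3.62% of all); DESeq2 also called 0, and 1, Itgb1, had an unadjusted p under 0.05. Itgam was at 247, 260, 251 and 327 CPM in Cebpb -/- and 372, 274 and 152 CPM in +/+ monocytes, overlapping. Itgb7 was at 138, 132, 98.5 and 145 CPM against 90.1, 130 and 134 CPM, also overlapping. The fitted changes were 0.03 (SE 0.24) for Itgam and 0.12 (SE 0.20) for Itgb7.

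In the chimeras, where both donors rebuilt the marrow of the same recipients, Itgam differed in opposite directions at the 2 times. At 5 weeks 3 of 10 members were called (22.5% of all) and at 10 weeks 6 of 10 (45.5% of all). Itgam was at 94.9, 71.1, 60.6 and 63.6 CPM in knockout against 111, 137 and 96.8 CPM in wild-type donor cells at 5 weeks, and at 81.3, 74.8 and 60.8 CPM against 18.5, 33.4, 17.9 and 16.2 CPM at 10 weeks. Knockout levels were alike at both times, and wild-type donor cells were high at 5 weeks and low at 10 weeks. The change was -0.66 (SE 0.21, adjusted p = 0.0330) at 5 weeks and 1.76 (SE 0.23, adjusted p = 1.3e-05) at 10 weeks, and the difference of the changes was 2.43 (SE 0.31, adjusted p = 0.000193). The 5-week call ended without knockout replicate 2, 3 or 4 or wild-type replicate 1 or 2, at values of -0.69 to -0.52. In the comparison of the times 3 of 10 members were called (13.5% of all): Itgam, Itgav and Itgb5.

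Itgb5 was at 261, 276, 153 and 226 CPM in knockout against 247, 237 and 272 CPM in wild-type donor cells at 5 weeks, and at 708, 561 and 368 CPM against 301, 177, 150.0 and 194 CPM at 10 weeks. Groups overlapped at 5 weeks and not at 10 weeks, when 41.1% of all tested genes were without overlap. The 10-week change was 1.41 (SE 0.25, adjusted p = 0.000284), and the changes differed by 1.54 (SE 0.35, adjusted p = 0.00868). Itgav was at 14.8, 13.2, 12.6 and 9.01 CPM against 14.7, 12.2 and 15.9 CPM at 5 weeks, and at 14.1, 27.9 and 22.9 CPM against 10.1, 9.23, 8.68 and 11.7 CPM at 10 weeks. It too separated the donors only at the later time, by 1.13 (SE 0.23, adjusted p = 0.000771), and the changes differed by 1.33 (SE 0.32, adjusted p = 0.0111). Itgb7 was at 155, 176, 125 and 224 CPM against 118, 104 and 163 CPM at 5 weeks (0.41, adjusted p = 0.418) and at 87.4, 57.3 and 41.5 CPM against 36.4, 27.7, 12.3 and 14.6 CPM at 10 weeks (1.41, SE 0.35, adjusted p = 0.00443). The difference between times, 1.01, was not called (adjusted p = 0.178). With the replicate block it was called (1.08, adjusted p = 0.0443), but replicate numbers did not seem to pair the donors at 5 weeks.

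Itgae, the alpha chain of CD103, was at 89.7, 134, 171 and 194 CPM in knockout against 66.7, 56.5 and 51.9 CPM in wild-type donor cells at 5 weeks, and at 15.1, 2.55 and 11 CPM against 2.88, 7.38, 4.82 and 6.73 CPM at 10 weeks. Outside the chimeras it did not exceed 6.24 CPM. Knockout cells were all higher at 5 weeks (1.33, SE 0.41, adjusted p = 0.0313) and overlapped at 10 weeks (0.84, adjusted p = 0.196). The 5-week call ended with library-size scaling (1.19, adjusted p = 0.0518), without the count filter (1.31, adjusted p = 0.0705) and without knockout replicate 3 or 4 or any wild-type library; without knockout replicate 2 the 10-week change was called, at 1.36 (adjusted p = 0.00782). The 8 dendritic cell markers, all with counts in these 4 groups, summed to 2337 to 4061 CPM in knockout against 550 to 690 CPM in wild-type donor cells at 5 weeks, and to 365 to 1595 CPM against 62.9 to 186 CPM at 10 weeks. The 10 lymphocyte markers, with Ncr1 at 0, summed to 9.92 to 20.2 CPM against 4.01 to 7.76 CPM at 5 weeks. Itgae marks some dendritic cells and T cells, and the part of these markers in the result was not tested.

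Itgal was lower in knockout donor cells at both times, at 118, 135, 88.1 and 125 CPM against 249.5, 198 and 229 CPM at 5 weeks (-0.95, SE 0.18, adjusted p = 0.00131) and at 126, 126 and 81.1 CPM against 318, 279, 224 and 229 CPM at 10 weeks (-1.24, SE 0.19, adjusted p = 5.9e-05). No libraries overlapped at either time, which held for 40.6% of all tested genes at 5 weeks and 41.1% at 10 weeks. Itgb2 was at 1044, 836, 907 and 820 CPM against 1120, 1233 and 1335 CPM at 5 weeks (-0.45, adjusted p = 0.0503; called by DESeq2 at -0.43, with library-size scaling at -0.57, without the count filter at -0.47, with only the libraries compared at -0.46 and without knockout replicate 1 at -0.52) and at 1216, 700.2 and 907 CPM against 1442, 1397, 1484 and 1400 CPM at 10 weeks (-0.60, SE 0.16, adjusted p = 0.00562). Itgax was at 929, 830, 742 and 871 CPM against 656, 769 and 627 CPM at 5 weeks and at 752, 456 and 742 CPM against 784, 697, 753 and 686 CPM at 10 weeks; the groups overlapped and neither change was called. Itga4 at 10 weeks was at 49.0, 58.7 and 67.0 CPM against 33.8, 35.5, 31.4 and 71.6 CPM (0.44, adjusted p = 0.143), and was called with the replicate number as a block (0.78, adjusted p = 0.00176) or without wild-type replicate 4 (0.80). Over the same libraries, the sum of 8 monocyte and tissue macrophage markers was 6063 to 10090 CPM in knockout against 6327 to 6969 CPM in wild-type cells at 5 weeks and 14696 to 20935 CPM against 1712 to 4279 CPM at 10 weeks; its part was not tested.

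**Figure D4:**
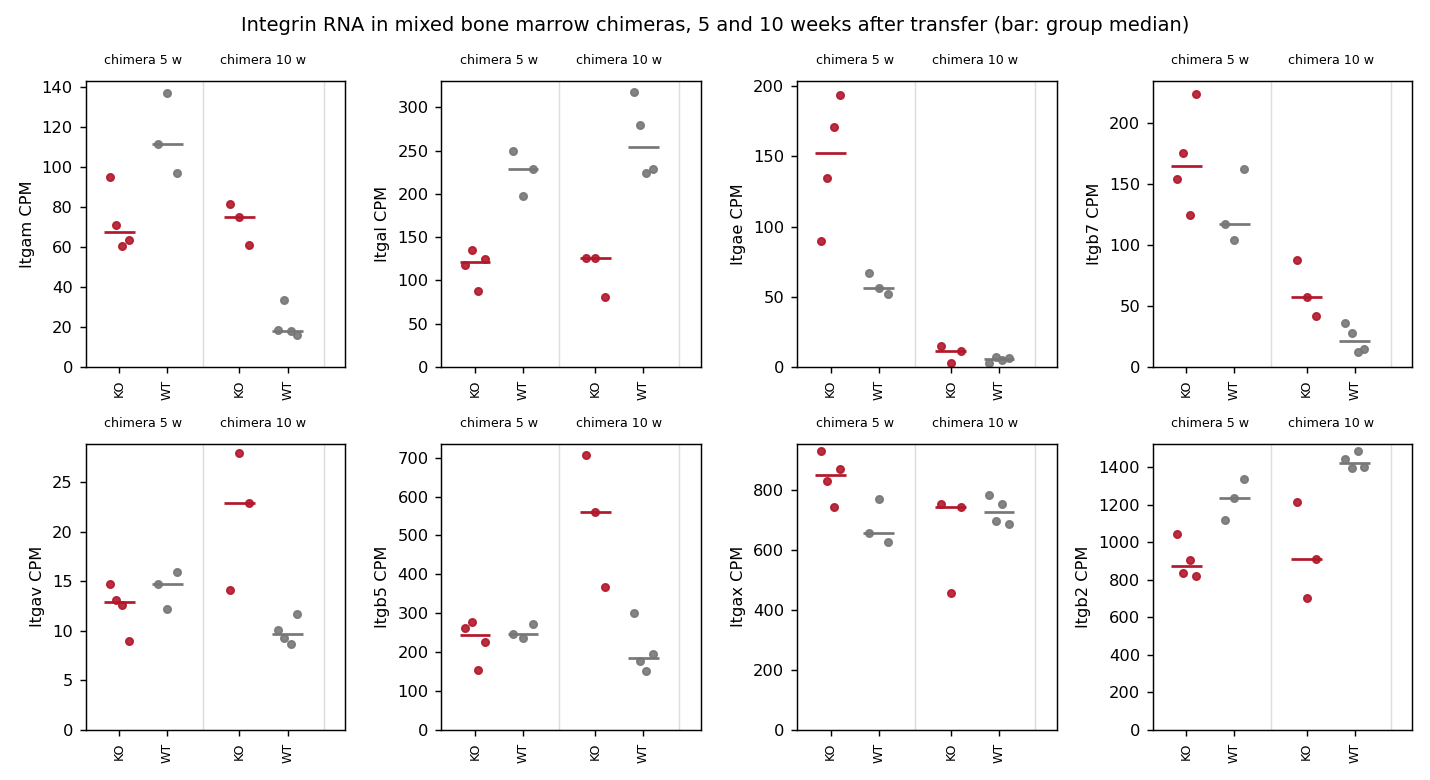
Levels (CPM) of 8 integrin genes in knockout and wild-type donor cells of mixed marrow chimeras at 5 and 10 weeks, each point 1 library. Itgam is lower in knockout than in wild-type donor cells at 5 weeks and higher at 10 weeks, and Itgav and Itgb5 separate the donors only at 10 weeks.

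Other genes of the integrin system were followed in fixed lists. Of 16 other integrin subunits, 2 passed the count filter in the tm1Pfj sorts and 0 were called there in any contrast; 2 had an unadjusted p under 0.05 in CD11b low and 1 in CD11b high knockout against wild type, 0 between the sorts, and DESeq2 called 0 in each. In the chimeras 1 rose and 1 fell of 10 tested at 5 weeks (12.1% and 10.5% of all tested genes), and 5 rose and 2 fell of 10 at 10 weeks (24.5% and 21.1% of all). Itgad, the CD11d partner of Itgb2, named after its values were seen, averaged 0.321 CPM in knockout and 6.37 CPM in wild-type donor cells at 10 weeks (-4.51, adjusted p = 0.000133). Itga5, the fibronectin receptor chain, rose by 1.12 at 10 weeks and by 1.40 in E18 Cebpb -/- premature macrophages, where 2 of 3 tested rose (12.0% of all). In Lip/Lip 1 of 3 fell between the sorts (9.48% of all), Itga1, at -2.48.

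Of 38 genes of integrin activation and signalling, 30 were tested in the tm1Pfj sorts: 5 rose and 9 fell in CD11b high knockout cells (12.2% and 11.8% of all tested genes) and 4 rose and 4 fell in CD11b low ones (8.29% and 6.83% of all) against wild type, with list medians of -0.27 and -0.19 where the medians of all genes were 0.00597 and 0.000775. Src, a kinase of outside-in signalling, rose by 4.91 (33.1 against 0.936 CPM on average) and 4.45, and Fyb, an adaptor for Rap1-driven integrin activation, by 4.32 and 3.75. Between the knockout sorts 0 of 30 were called (4 at an unadjusted p under 0.05, Parvb, Ptk2b, Rap1a and Rsu1; DESeq2 0), where 3.80% of all were. Between the Lip/Lip sorts 5 were higher and 9 lower of 31 (10.1% and 9.48% of all), among them Parvg, a link to actin, at -1.16. In the chimeras 4 rose and 5 fell of 32 at 5 weeks (12.1% and 10.5% of all), and 10 rose and 13 fell at 10 weeks (24.5% and 21.1% of all), when Src changed by 1.69, Fyb by 1.66 and Cd47, a partner of β3 integrins, by -1.50. In E18 Cebpb -/- premature macrophages 5 rose and 1, Flna, which ties integrin tails to actin, fell, of 32 (12.0% and 9.55% of all).

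Of 25 genes for integrin ligands, 10 were tested in the tm1Pfj sorts, with 4 higher and 3 lower in CD11b high (12.2% and 11.8% of all tested genes) and 5 higher and 2 lower in CD11b low knockout cells (8.29% and 6.83% of all), and list medians of 0.70 and 1.03. Mfge8, the αvβ5 and αvβ3 ligand, rose by 3.77 and 4.60 (262 and 466 against 20.0 CPM on average) and Fn1, fibronectin, by 2.79 and 2.82 (1049 and 1070.3 against 151 CPM). C3, the source of the iC3b bound by CD11b and CD11c, changed by -1.70 and -1.04. Between the knockout sorts Cdh1, E-cadherin, the αEβ7 ligand, and Spp1, osteopontin, were lower in CD11b high cells, at changes of -2.16 and -1.32, whereas between the Lip/Lip sorts 3 rose and 3 fell of 11 (10.1% and 9.48% of all), with Fn1 at 2.70. At 10 weeks in the chimeras 10 rose and 3 fell of 16 (24.5% and 21.1% of all), led by Mfge8 (1104 against 61.4 CPM, a change of 4.17); at 5 weeks 2 rose and 5 fell (12.1% and 10.5% of all), with Mfge8 at 2.16, Icam1, a ligand of CD11a and CD11b, at 0.94, and Fn1 at -1.18. In E18 Cebpb -/- premature macrophages 4 rose and 3 fell of 14 (12.0% and 9.55% of all), with Icam1 at 3.33 (1531 against 152 CPM) and Fn1 at -5.16 (50.6 against 1810 CPM).

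The genes whose pattern was most like that of Itgam were ranked by Pearson's r of log2(CPM + 1) over all 99 libraries, centred within each experiment, among 7674 genes. These libraries share experiments and the mutant contrasts themselves, so the values are descriptions. Itgb7 led at r = 0.917, followed by Adgre5 (0.909), C1qc (0.907), Fam46c (0.903) and C1qb (0.900). At the other end stood Spns1 (-0.872), Sept9 (-0.869) and Taldo1 (-0.865). For Itgax the most alike were H2-DMb1 (0.653), H2-DMa (0.641), Tmem50b (0.636), Ctsh (0.634) and Tacc1 (0.634), and the least Tmem120a (-0.663), Aprt (-0.656) and G0s2 (-0.644). Between members, Itgam stood at 0.742 with Itga4, 0.245 with Itgax and -0.691 with Itgal.

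C/EBPβ ChIP regions lay within 10 kb of 9 of the 10 genes in at least 1 wild-type list, Itgb1 having 0; 51.6% of 20541 genes had one. Counted in both lists, there were 7 regions at Itgb2, 5 at Itgam, 5 at Itgb5, 4 at Itgax, 4 at Itgal, 2 at Itga4, 2 at Itgb7, 1 at Itgav and 0 at Itgae. Of all genes 39.2% had a region in both lists. Of these, chr7:128121438-128122019 counts for both Itgam and Itgax, neighbours on chromosome 7. Peak scores are the authors'. The strongest at Itgam, chr7:128063066-128064014, centred 900 bases after the start site, had a -log10 q of 34.3, and the strongest at Itgax, chr7:128133354-128134226, centred 4240 bases after the start, 72.8. ATAC regions overlapped both of these in all 5 lists.

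At Itgb7, a C/EBPβ region found in both lists at chr15:102232549-102233301 had a -log10 q of 12.6. It was centred 990 bases upstream of the start site used here but lay inside the annotated gene, which runs to 102233405. It overlapped an ATAC region, chr15:102232732-102233264, present in both MxCre+ lists and in 0 of 3 MxCre+ Cebpb flox/flox lists. The second region, chr15:102242939-102244289, had a -log10 q of 102 and was open in all 5 ATAC lists. Regions present in both control lists and in no knockout list also occurred once each at Itga4 and Itgb2, so that 3 of the 10 genes had one, where 14.9% of all genes did. Regions in all 3 knockout lists and in no control list occurred at Itgae, Itga4, Itgb2 and Itgb5, once each, and 2 times at Itgav, where 16.8% of all genes had one. Itgam and Itgax had none of either kind: at the printed Itgam promoter an ATAC region was in 1 of 2 control and 3 of 3 knockout lists, and at the Itgax promoter in all 5. How deeply the chromatin samples were sequenced was not known, and the ATAC cells were cultured and treated, unlike the RNA samples.

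**Figure D5:**
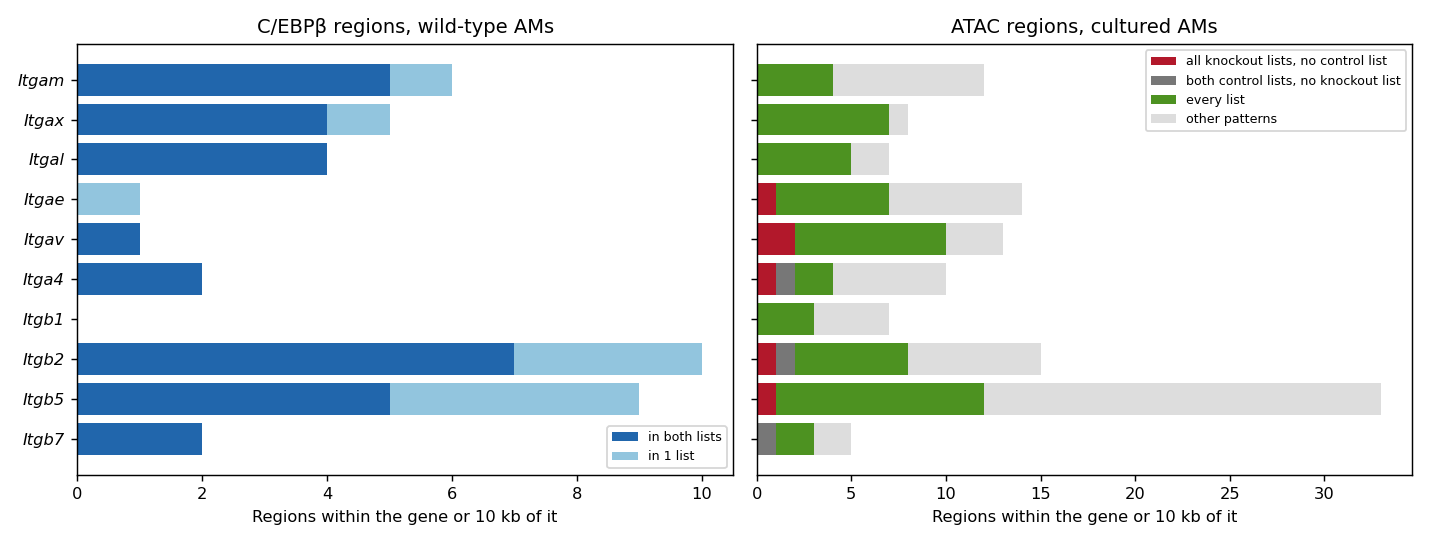
Number of peak regions within each integrin gene or 10 kb of it: C/EBPβ ChIP regions of wild-type macrophages by how many lists hold them (left), and ATAC regions of cultured macrophages by which lists hold them (right). Itgb2 has the most C/EBPβ regions, 7 in both lists, Itgb1 has 0, and Itgb7, Itga4 and Itgb2 each have 1 ATAC region of control lists only.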

How the data were processed

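RNA came from 3′ polyadenylated libraries of sorted cells, per the labels' protocols. The authors deposited raw counts per Ensembl gene; STAR 2.6.1a, featureCounts 1.6.3 and GRCm38 are named in the submitters' processing notes, with no word on collapsing of molecule barcodes or on strand. The deposited peak lists, 1 per sample, hold a −log10 p and a −log10 q, a fold over background and a score per peak from the authors' caller; the submitters' processing notes name MACS2 2.2.7.1 and BWA 0.7.17.

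CPM used TMM factors within each experiment. All genes passing a minimum count of 10 (filterByExpr) were tested per experiment with edgeR 4.0.16 in R 4.3.3 by the quasi-likelihood test without replicate block, with Benjamini-Hochberg adjustment over all genes and a threshold of 0.05. Differences of differences were fitted as interaction terms. DESeq2 1.42.0, scaling by library size, no filter, a replicate block, fits of only the libraries compared and leaving out each library were alternatives. The test recovered known changes in simulated data, set only in genes of at least 20 CPM. It therefore does not cover genes as low as Itgam and Itgb7 in adult controls. Where a control held 1 to 3 counts, ratios of counts are given with exact intervals. Peak regions were merged across lists, with an overlap of 1 base, within the gene or 10 kb of it.

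Replicate numbers seem to pair the samples only between the Lip/Lip sorts (correlations of same-numbered deviations 0.105 to 0.246, 4 pairs) and between donors at 10 weeks (0.127 to 0.147, 3 pairs). This possible pairing was read from the data, is not stated by the labels and was not used in the main test. Named genes are the members, Cebpb and Csf2rb, per list and main comparison up to 4 called genes of lowest adjusted p with at least 20 CPM, and the genes most and least like Itgam and Itgax. Itgad, below 20 CPM, was named outside this rule, after its values were seen. The results of 1 list gene are not reported here. Members and lists were chosen with earlier results of these data known. Inputs of the ChIP and the remaining ATAC samples were not used here.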

Additional observations from a re-analysis of the deposited data

Results flagged for a closer look

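Of 124 group values of the members checked, 10 had a library that stood apart from the rest of its group, where chance gives about 1 in 20. Itgam read 47.8 CPM in CD11b low knockout replicate 4, against 13.8 to 19.1 CPM in its other libraries. Itgam and Itga4 both stood apart in replicate 4 of the Cebpb -/- Ly6Chi monocytes, at 327 CPM (others 247 to 260 CPM) and 393 CPM (others 323 to 331 CPM). In wild-type donor cells at 10 weeks Itgam read 33.4 CPM in replicate 2 (others 16.2 to 18.5 CPM) and Itga4 71.6 CPM in replicate 4 (others 31.4 to 35.5 CPM). Itgax read 720 CPM in the chromatin-matched Lip/Lip replicate 4 (others 981 to 1032 CPM), and Itgal 446 CPM in Csf2rb +/+ replicate 2 (others 296 to 300.0 CPM). Itgb1 read 311 CPM in CD11c Cre knockout replicate 4 (others 235 to 239 CPM). Itgae had counts in a single library of 2 groups, at 0.511 CPM in Csf2rb +/+ replicate 4 and at 1.52 CPM in chromatin-matched Lip +/+ replicate 3.

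Effects differed between groups, by a test of the difference, for 5 values. The knockout effect on Itgal was lower in facility2 than in facility1 by 1.64, stated as facility2 minus facility1 at -1.64. The chimera effect at 10 weeks exceeded that at 5 weeks by 2.43 for Itgam, 1.33 for Itgav and 1.54 for Itgb5. The difference of Itgb7 between CD11b sorts was -3.04 for knockout minus Lip/Lip.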

How the results depend on the processing

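Of 85 called member results, 60 held under every alternative run and all 85 kept their sign; of the alternative values of called results 885 kept and 101 lost the call, and uncalled results gained 59 calls. Library-size scaling shifted the median of all genes by over 0.1 in 10 fits, by -0.25 to -0.104. Numbers of members called moved as follows, and the cause was not tested. With the replicate block, 1 was called between the knockout sorts, 2 in chromatin-matched Lip/Lip and 0 for facility2 minus facility1. Calls not made with the block were those of Itgal between the knockout sorts (adjusted p = 0.0551), in facility1 (0.0557) and between facilities (0.0577), Itgb2 (0.115) and Itgb5 (0.129) in facility2, Itgb1 in knockout against heterozygous (0.0878), Itgax in males (0.0937), Itgb2 in E18 Cebpb -/- (0.0933) and Csf2rb -/- (0.102), Itgae at 5 weeks (0.112), and Itgax (0.0599) and Itgb7 (0.0547) in chromatin-matched Lip/Lip. It added Itga4 at 5 weeks (0.0176); at 10 weeks it added Itga4, and between the Lip/Lip sorts it changed no call. With only the libraries compared, 5 were called in males, 3 in Lip/Lip CD11b low, 6 at 5 weeks and 0 for facility2 minus facility1, where library-size scaling and no filter each gave 2, Itgal and Itgax. A crossed block, added after seeing the data, gave 2 in LyzM Cre. Leaving out 1 library gave 4 to 7 in CD11b high knockout against wild type, 1 to 3 between the knockout sorts, 3 to 5 in facility1 knockout against wild type, 3 to 6 against heterozygous, 0 to 4 in LyzM Cre, 2 to 4 in CD11c Cre, 3 to 5 in Lip/Lip CD11b low, 1 to 4 at 5 weeks, 0 to 3 in chromatin-matched Lip/Lip, 0 to 3 for facility2 minus facility1 and 1 to 3 for knockout minus Lip/Lip. Over all genes, calls in heterozygous against wild type were 70, with 214 by DESeq2, 176 without the filter and 37 with the block. The block gave 1437 for 2336 in knockout against heterozygous, 2667 for 1677 in CD11c Cre, 946 for 2118 in Csf2rb -/- and 333 for 840 for facility2 minus facility1, where only the libraries compared gave 285. Males had 2143 for 1201 with only their libraries, and LyzM Cre 805 without the filter and 747 with the crossed block, for 405. Peaks with a −log10 q of at least 10 gave 18 C/EBPβ regions in both lists, for 30, and 3 ATAC regions of the knockout lists alone, for 6, at Itgav, Itgb5 and Itgb1. With 5 CPM added, r was 0.901 for Itgb7 with Itgam, where Slc11a1 led at 0.910, and 0.652 for H2-DMb1 with Itgax. Genes under about 5 CPM rest on few counts in the shallowest libraries.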
